A study of Mus musculus with 24 samples.

Results

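The 9 genes described here encode ABC transporters that pump drugs, conjugates and related organic anions out of cells: Abcc1 to Abcc6, Abcb1a, Abcb1b and Abcg2. They were taken as the probe sets that the platform annotation pairs with exactly 1 of these symbols, keeping the probe set with the highest mean signal per gene, and all 9 were found among 18820 genes measured. Each had its level on 24 mouse arrays, 3 in each of 8 groups of tissue and genotype. Levels are log2 intensities, so a difference of 1 is a doubling, and levels of different genes are not set against each other because each probe set has its own response.

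Samples were whole liver or cultured primary hepatocytes of mice aged 8 weeks, all labelled male, a label that 2 hepatocyte arrays went against. The 4 genotypes were control (NEMOf/f, a floxed Ikbkg gene, here called control), KEAP1Δhepa (KEAP1 knockout), NEMOΔhepa (NEMO knockout) and NEMOΔhepa/KEAP1Δhepa (double knockout). The floxed alleles were deleted by the Alfp-Cre transgene, which acts in cells of the hepatocyte lineage. The state of both genes in each liver cell type was not measured here. The hepatocytes were released by collagenase perfusion and had adhered to plates overnight in medium with serum. Each sample is labelled with a mouse genotype and a replicate number, and the sources used here do not give whether liver and hepatocytes came from the same mice.

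KEAP1 holds the transcription factor NRF2 at a low level by marking it for degradation, and NRF2 raises genes of antioxidant defence and detoxification by binding antioxidant response elements with its small MAF partners. NEMO is the regulatory subunit of the kinase that activates NF-kB. Efflux pumps are the last step of detoxification: enzymes attach glutathione, glucuronate or sulfate to a compound, and the pumps carry the product into bile across the canalicular membrane or back into blood across the basolateral membrane. Abcc2, Abcg2 and the P-glycoproteins Abcb1a and Abcb1b lie at the canalicular membrane, whereas Abcc3 and Abcc4 lie at the basolateral side and are known to rise in cholestasis and after NRF2 activation.

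The NRF2 target Nqo1, a quinone reductase, checked the labels. In hepatocytes it was at 7.77, 5.00 and 6.63 in the controls, 8.65, 8.07 and 8.62 in the KEAP1 knockout, 4.96, 5.94 and 5.64 in the NEMO knockout and 8.98, 9.65 and 9.65 in the double knockout. In liver it was at 4.71, 5.37 and 9.17 in the controls, 9.01, 9.0 and 8.60 in the KEAP1 knockout, 5.95, 5.84 and 5.58 in the NEMO knockout and 9.25, 9.36 and 9.25 in the double knockout. The array labelled liver control 3, at 9.17, lay among the KEAP1-deleted arrays and so went against its label, and hepatocyte control 1, at 7.77, was the next highest KEAP1-intact array, below all KEAP1-deleted ones. Hepatocyte control 1 and hepatocyte double knockout 3 also went against the male label: Xist, a transcript of female cells, was at 9.65 and 9.76 on them and at most 2.98 elsewhere, and the Y-linked Eif2s3y was at 2.51 and 2.71 on them and at least 6.74 elsewhere. On liver double knockout 3, Adipoq, a fat cell gene, and Krt7, a duct keratin, were at 7.17 and 7.81. These 4 arrays are called the arrays in doubt, and results are given with and without them. Because the array labelled liver control 3 came into doubt through NRF2 target genes, its removal is not independent of results for those genes or for NRF2-responsive pumps. Its Ikbkg level, 6.40, was also below the other liver controls (6.81 to 6.86) and the KEAP1 knockout livers (6.96 to 7.20). That level lay above the NEMO knockout livers (6.14 to 6.26) and within the double knockout livers (6.18 to 6.47). How this array came by these levels was not tested.

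RefSeq held promoter windows on GRCm38.p6 for 6 of the 9 genes (Abcb1a, Abcb1b, Abcc2, Abcc4, Abcc5 and Abcg2), 9 windows in all, each the 250 bases before an annotated start. The core of the antioxidant response element, TGACNNNGC, was searched on both strands. It was in 3 of the 9 windows (33.3%), against 3338 of the 32851 windows of all genes (10.2%), and the 3 belonged to Abcc4, which has windows at 2 starts, and Abcc2. They are shown here, in the direction of the gene and with the match in capitals, because Abcc4 was the pump with the largest changes, and the window of Abcc5, the gene with the widest range of hepatocyte group means after Abcc4 (2.04 without the arrays in doubt), is shown as one without a match. The Abcc4 windows were chr14:118706220-118706469 and chr14:118676932-118677181 on the minus strand, that of Abcc2 was chr19:43782058-43782307 on the plus strand, and that of Abcc5 was chr16:20426395-20426644 on the minus strand.
Abcc4, start upstream: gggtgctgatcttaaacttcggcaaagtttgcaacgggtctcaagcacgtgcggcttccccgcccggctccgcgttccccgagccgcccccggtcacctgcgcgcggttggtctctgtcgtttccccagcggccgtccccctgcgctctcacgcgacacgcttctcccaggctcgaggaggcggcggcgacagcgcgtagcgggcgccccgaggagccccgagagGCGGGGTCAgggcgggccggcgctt
Abcc4, start downstream: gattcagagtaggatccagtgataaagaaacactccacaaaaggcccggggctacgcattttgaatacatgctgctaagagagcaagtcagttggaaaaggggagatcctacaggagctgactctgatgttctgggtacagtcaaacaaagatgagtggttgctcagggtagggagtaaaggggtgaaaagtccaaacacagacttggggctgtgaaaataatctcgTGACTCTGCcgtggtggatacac
Abcc2: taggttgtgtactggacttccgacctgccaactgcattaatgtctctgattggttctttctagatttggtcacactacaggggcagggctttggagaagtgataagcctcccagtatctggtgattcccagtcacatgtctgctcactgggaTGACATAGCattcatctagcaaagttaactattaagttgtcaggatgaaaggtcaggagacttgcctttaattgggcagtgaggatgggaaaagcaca
Abcc5: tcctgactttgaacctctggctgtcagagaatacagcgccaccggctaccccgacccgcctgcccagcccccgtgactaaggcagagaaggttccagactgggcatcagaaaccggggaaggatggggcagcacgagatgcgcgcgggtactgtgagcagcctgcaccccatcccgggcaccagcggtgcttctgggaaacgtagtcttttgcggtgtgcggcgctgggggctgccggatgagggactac
The match began 25 bases before the upstream Abcc4 start and lies there on the opposite strand, as GCGGGGTCA. It began 23 bases before the other Abcc4 start, as TGACTCTGC, and 98 bases before the Abcc2 start, as TGACATAGC. A match in these letters is a description of the sequence, and no binding was measured.

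**Figure D1:**
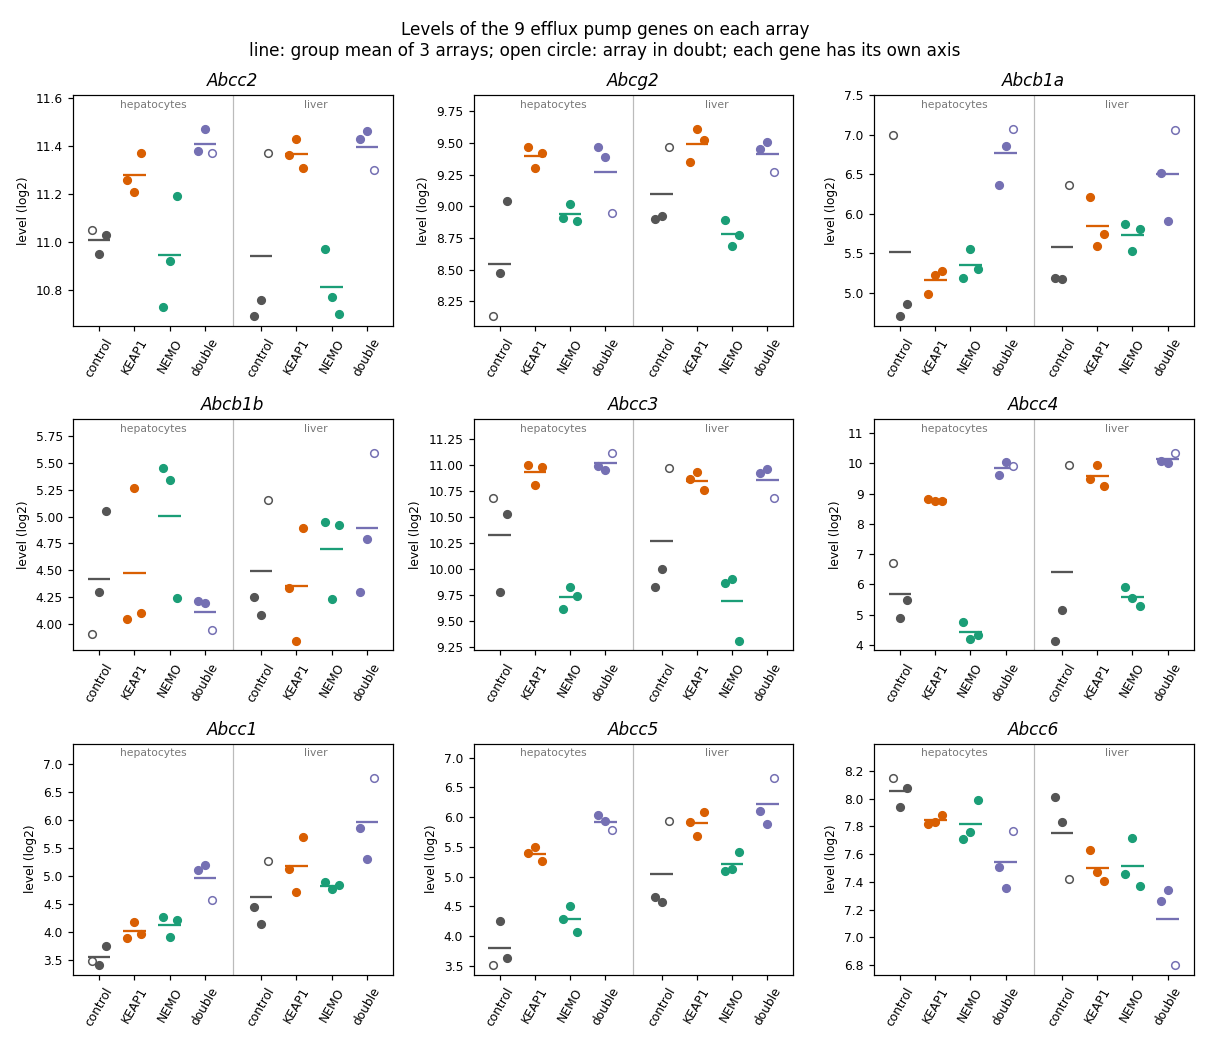
Level of each pump gene (log2, each gene on its own axis) on every array, by genotype, for cultured hepatocytes and whole liver. Points are arrays, open points are the 4 arrays in doubt and lines are means of 3 arrays. Abcc4 separates KEAP1-deleted from KEAP1-intact arrays in both tissues, except for the array labelled liver control 3 at 9.96.

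Loss of KEAP1 in cultured hepatocytes went with higher Abcc4, Abcc5 and Abcg2. In the KEAP1 knockout against control, Abcc4 was 8.55-fold higher, Abcc5 3.00-fold and Abcg2 1.80-fold, and 0 of the 9 pumps were called lower. For comparison, 1.45% of the 18820 genes were called higher. Tests here and below are limma's moderated test with Benjamini-Hochberg adjustment over all 18820 genes, called at an adjusted p under 0.05. With the 4 arrays in doubt left out, Abcc3 was called too, which made 4 pumps beside 1.34% of all genes called higher. Markers of other cells moved in the same comparison: the summed level (log2) of 6 endothelial markers was 8.32 to 9.28 in the controls and 9.83 to 10.38 in the KEAP1 knockout, and that of 7 stellate cell markers 7.89 to 8.65 and 9.11 to 9.26. Their part in these results was not tested.

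In NEMO-deficient hepatocytes, additional loss of KEAP1 went with 5 higher pumps. The double knockout against the NEMO knockout had Abcc1, Abcc2, Abcc3, Abcc4 and Abcc5 higher, beside 2.16% of all genes called higher, and without the arrays in doubt Abcb1a joined them, beside 2.39%. The KEAP1 knockout against the NEMO knockout differs in both genes, and no array in doubt enters either group. It had Abcc3, Abcc4 and Abcc5 higher, beside 2.99% of genes, and there the stellate cell sum was lower in the KEAP1 knockout (9.11 to 9.26 against 10.53 to 10.80). There Abcg2 joined them when the arrays in doubt were left out of the estimate of the spread (3.57% of genes). The double knockout against control had 6 pumps higher (Abcc1, Abcc2, Abcc3, Abcc4, Abcc5 and Abcg2) beside 6.73% of genes, and Abcc6 lower, beside 2.99%. Once the arrays in doubt were left out Abcb1a was higher as well (6.44% of genes higher and 2.79% lower). Of the calls with all arrays, those of Abcc3 (0.69 ± 0.17, limma, adjusted p = 0.0228) and Abcg2 (0.72 ± 0.19, limma, adjusted p = 0.0267) ended with the groups fitted alone (0.106 and 0.122). They also ended with single arrays left out, Abcc3 without any 1 of the double knockouts (0.0578 to 0.0609) and Abcg2 without control 1 or 2 or double knockout 1 or 2 (0.0821 to 0.111). All these hepatocyte comparisons share groups, so they are not independent of each other.

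In whole liver the number of pumps called depended on the array labelled liver control 3. With all arrays, limma called 0 of the 9 pumps and 0 of 18820 genes (0%) for the KEAP1 knockout against control, although 5 pumps had an unadjusted p under 0.05. Without the 4 arrays in doubt, Abcc2, Abcc3, Abcc4, Abcc5 and Abcg2 were higher, beside 3.71% of genes, and the same 5 pumps were called when the array labelled liver control 3 alone was left out. Among the arrays not in doubt, the endothelial sum was 10.04 to 10.58 in the controls and 10.88 to 10.95 in the KEAP1 knockout livers, the stellate cell sum 10.37 to 10.72 and 10.79 to 11.17 and the macrophage sum 10.44 to 10.51 and 10.58 to 11.28, and their part was not tested. The array labelled liver control 3 has no part in the difference between the KEAP1 and NEMO knockouts, which differ in both genes. That comparison had Abcc3 and Abcg2 higher with all arrays (1.22% of genes called higher). With those 2 groups fitted alone, and again without the arrays in doubt, the same 5 pumps were called (2.69% and 3.37% of genes). The double knockout against the NEMO knockout had Abcc3 higher with all arrays (0.414% of genes) and Abcc2, Abcc3, Abcc4, Abcc5 and Abcg2 higher without the arrays in doubt (1.92%).

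**Figure D2:**
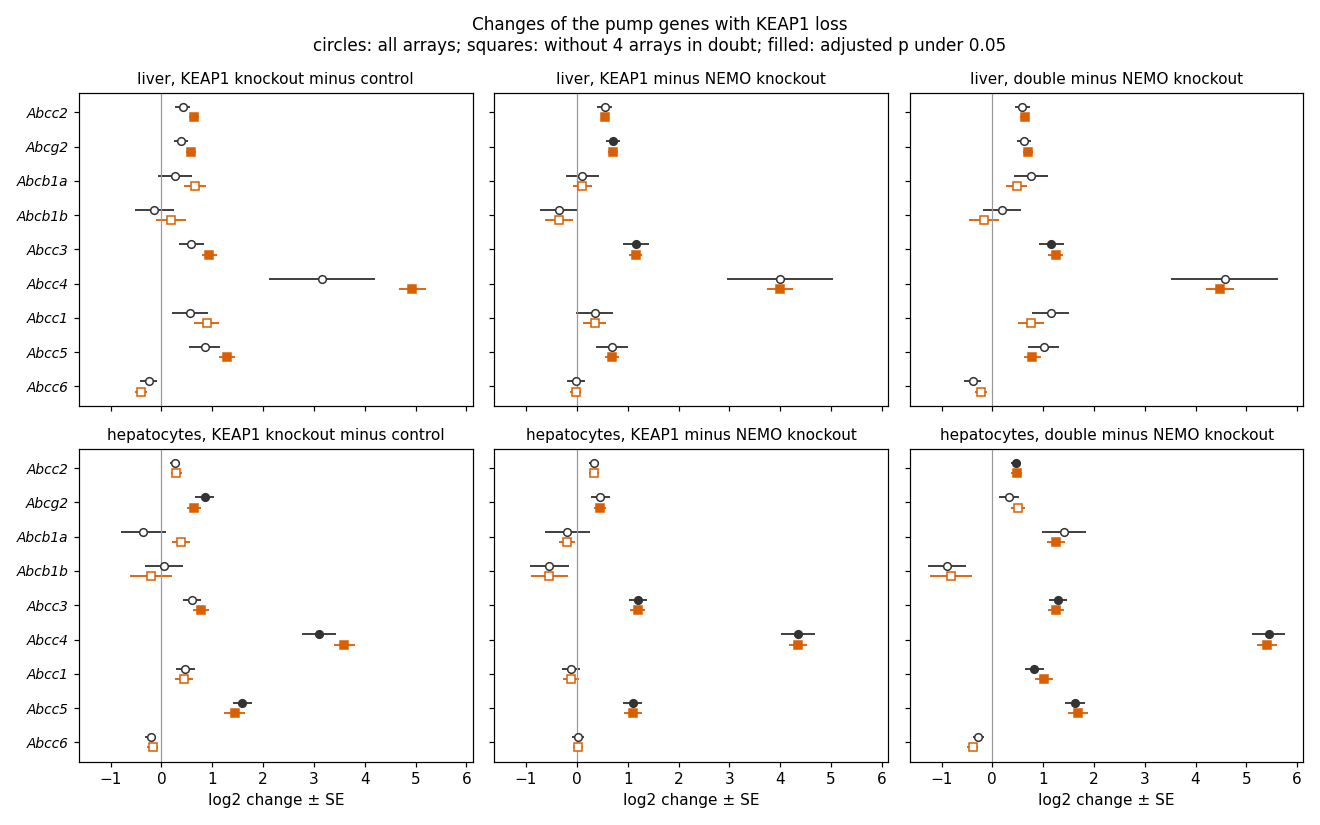
Log2 change (horizontal axis) ± standard error of the 9 pump genes in 3 comparisons of KEAP1-deleted with KEAP1-intact groups, in liver (upper panels) and hepatocytes (lower panels). Of these, the comparison of KEAP1 with NEMO knockout differs in both genes. Circles are fits on all arrays, squares fits without the 4 arrays in doubt, and filled symbols have an adjusted p under 0.05. Abcc4 lies farthest to the right in every panel, and Abcc6 lies at or left of 0.02 throughout.

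Abcc4 encodes MRP4, a basolateral exporter of bile acids, cyclic nucleotides and conjugates that is scarce in the healthy liver. In hepatocytes it was at 6.70, 4.88 and 5.47 in the controls and at 8.82, 8.75 and 8.77 in the KEAP1 knockout. In the NEMO knockout it was at 4.75, 4.20 and 4.33 and in the double knockout at 9.62, 10.04 and 9.93. Every KEAP1-deleted culture thus lay above every KEAP1-intact one. In liver it was at 4.13 and 5.14 in controls 1 and 2 and at 9.96 on the array labelled liver control 3. The KEAP1 knockout livers were at 9.49, 9.96 and 9.27, the NEMO knockout livers at 5.90, 5.56 and 5.27 and the double knockout livers at 10.07, 10.03 and 10.33. Leaving aside the arrays in doubt, the KEAP1-deleted arrays ran from 8.75 to 10.07 and the KEAP1-intact arrays from 4.13 to 5.90 over both tissues.

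In hepatocytes the change of Abcc4 was 3.10 ± 0.33 (SE, n = 3 per group) for the KEAP1 knockout against control (limma, adjusted p = 0.000412) and 5.44 ± 0.33 for the double against the NEMO knockout (limma, adjusted p = 1.42e-06), a 43.4-fold difference. Both calls held under the 8 processing alternatives run and with any single array left out. Of those 8, the mean over probe sets could not change the level of any pump, because each pump had 1 probe set. The double minus KEAP1 knockout difference was 1.09 ± 0.33, which was not called with all arrays (limma, adjusted p = 0.112) and was called without the arrays in doubt (1.05 ± 0.20, limma, adjusted p = 0.0115). The NEMO knockout cultures were the lowest: Abcc4 fell by 1.26 on the log2 scale against control (SE 0.33, limma, adjusted p = 0.0359), the only pump called in that comparison, beside 2.05% of all genes called lower. Without the arrays in doubt that difference was -0.75 ± 0.20 (limma, adjusted p = 0.0463, beside 1.45% of genes). It was no longer called without hepatocyte control 3 or without any 1 of the NEMO knockout cultures, with adjusted p between 0.053 and 0.127, nor with these groups fitted alone (limma, adjusted p = 0.131) or without the trend (0.0521).

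The interaction asks whether KEAP1 loss moved a gene more in the absence of NEMO than in its presence. For Abcc4 in hepatocytes it was 2.35 ± 0.46 with all arrays (limma, adjusted p = 0.0934), when 0 of 9 pumps and 8 genes (0.0425%) were called and 3 pumps had an unadjusted p under 0.05. Without the arrays in doubt it was 1.80 ± 0.28 (limma, adjusted p = 0.0308), with 0.0584% of genes called in that direction. Leaving out hepatocyte control 1 gave 1.84 ± 0.26 (adjusted p = 0.0205) and leaving out hepatocyte control 2 gave 2.75 ± 0.37 (limma, adjusted p = 0.00708). The Abcc4 interaction was not called with any other single hepatocyte array left out. In liver the same term was 1.40 ± 1.48 with all arrays and -0.46 ± 0.39 without the arrays in doubt, so its sign depended on them, and it was called in neither. In liver 0 of 9 pumps were called for the interaction and 0 had an unadjusted p under 0.05 with all arrays, beside 0.0106% of genes. Without the arrays in doubt it was 0 pumps, 1 of them with an unadjusted p under 0.05, and 0.345% of genes.

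In liver the Abcc4 difference between KEAP1 knockout and control was 3.16 ± 1.05 with all arrays (limma, adjusted p = 0.622) and 4.94 ± 0.27 with those in doubt left out (limma, adjusted p = 9.92e-07). Between the KEAP1 and NEMO knockout livers it was 4.0 in both fits, with a standard error of 1.05 with all arrays (limma, adjusted p = 0.066) and of 0.25 without those in doubt (adjusted p = 2.83e-06). The value was the same because neither group holds such an array, while the shared spread shrank. The sign of the NEMO knockout against control turned with the array labelled liver control 3: -0.83 ± 1.05 with all arrays, and 0.94 ± 0.27 without the arrays in doubt (limma, adjusted p = 0.0449). With the array labelled liver control 3 alone left out it missed the threshold (adjusted p = 0.0663). In that liver comparison limma called 0 of 9 pumps with all arrays, beside 1.33% of genes, with 2 pumps at an unadjusted p under 0.05, and Abcc4 and Abcc5 without the arrays in doubt, beside 8.48% of genes called higher.

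Abcc3 encodes MRP3, the basolateral exporter of glucuronides and bile acids. Hepatocyte controls had it at 10.68, 9.78 and 10.53, the KEAP1 knockout at 11, 10.81 and 10.98, the NEMO knockout at 9.62, 9.83 and 9.74 and the double knockout at 10.99, 10.95 and 11.11. The KEAP1-deleted cultures were all above the others, and the controls were the most spread (10.33 ± 0.48, SD, n = 3). In liver it was at 9.83, 10.00 and 10.97 in the controls, the last being the array labelled liver control 3, and at 10.86, 10.93 and 10.76 in the KEAP1 knockout. The NEMO knockout livers were at 9.87, 9.90 and 9.31 and the double knockout livers at 10.92, 10.96 and 10.68. Against the NEMO knockout, the double knockout was higher by 1.29 ± 0.17 in hepatocytes (limma, adjusted p = 0.00117) and by 1.16 ± 0.25 in liver (limma, adjusted p = 0.0462). The hepatocyte call held with each array left out. The liver call was lost with any 1 of the 6 arrays left out, with adjusted p between 0.0606 and 0.201, and with the replicate block (0.0549) or without the trend (0.0695). The KEAP1 knockout livers exceeded the NEMO knockout livers by 1.16 ± 0.25 (limma, adjusted p = 0.0297), which was also lost with any 1 of those 6 arrays left out (0.057 to 0.14). Leaving out the arrays in doubt, limma's adjusted p for these liver differences was 0.000561 and 0.000283. Against control, the difference of the hepatocyte KEAP1 knockout was 0.60 ± 0.17 with all arrays (limma, adjusted p = 0.113) and 0.78 ± 0.16 with those in doubt left out (limma, adjusted p = 0.0365).

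Abcc2 encodes MRP2, the canalicular pump for bilirubin glucuronides and glutathione conjugates. Its range over the 24 arrays was narrow. In hepatocytes it was at 11.05, 10.95 and 11.03 in the controls, 11.26, 11.21 and 11.37 in the KEAP1 knockout, 10.73, 10.92 and 11.19 in the NEMO knockout and 11.38, 11.47 and 11.37 in the double knockout. In liver it was at 10.69, 10.76 and 11.37 in the controls, 11.36, 11.43 and 11.31 in the KEAP1 knockout, 10.97, 10.77 and 10.70 in the NEMO knockout and 11.43, 11.46 and 11.30 in the double knockout. The lowest KEAP1-deleted array, at 11.21, was just above the highest KEAP1-intact one, at 11.19, once the arrays in doubt were left aside. The double knockout hepatocytes exceeded the NEMO knockout by 0.46 ± 0.10 (limma, adjusted p = 0.0233) and the control by 0.40 ± 0.10 (limma, adjusted p = 0.02). The first call was lost without any of NEMO knockout 1 and 2 or double knockout 1 and 2, with adjusted p between 0.0569 and 0.0936, and the second without hepatocyte control 2 or double knockout 2 (0.0679 and 0.0915). Both also ended without the trend (0.0694 and 0.0587), and the first with its groups fitted alone (0.0614). In liver the KEAP1 knockout exceeded control by 0.64 ± 0.09 without the arrays in doubt (limma, adjusted p = 0.0019), a 1.56-fold difference, against 0.42 ± 0.15 with all arrays (limma, adjusted p = 0.624).

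Abcg2 encodes BCRP, a canalicular pump for sulfates, urate and many drugs. The KEAP1 knockout cultures, at 9.47, 9.30 and 9.42, were above the controls at 8.13, 8.47 and 9.04. The NEMO knockout cultures, at 8.91, 9.02 and 8.88, were within the range of the controls, and the double knockout was at 9.47, 9.39 and 8.95. In liver the controls were at 8.90, 8.92 and 9.47, the KEAP1 knockout at 9.35, 9.61 and 9.52, the NEMO knockout at 8.89, 8.69 and 8.77 and the double knockout at 9.45, 9.51 and 9.27. In both tissues the arrays in doubt were the ones that joined the ranges: without them the KEAP1-deleted arrays began at 9.30 and the KEAP1-intact ones ended at 9.04. The lowest hepatocyte control (8.13) and the lowest double knockout culture (8.95) were the 2 arrays high in Xist, and the part of sex was not tested. In hepatocytes the KEAP1 knockout exceeded control by 0.85 ± 0.19 (limma, adjusted p = 0.0389). That call was lost with any 1 of hepatocyte controls 1 and 2 or the 3 KEAP1 knockouts left out (0.0962 to 0.156), and it held without hepatocyte control 3 (adjusted p = 0.00306). Its call also ended with the replicate block, with groups fitted alone, with quantile normalization and without the trend (limma, adjusted p from 0.0514 to 0.106), and it held without the 4 arrays in doubt, at 0.64 ± 0.14 (limma, adjusted p = 0.0372). In liver the KEAP1 knockout exceeded the NEMO knockout by 0.71 ± 0.14 (limma, adjusted p = 0.0246), called under all 8 processing alternatives run but, of the 6 single arrays, only with NEMO knockout 1 left out (adjusted p = 0.0476). In the others it was between 0.0517 and 0.11.

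Abcc5 encodes MRP5, an exporter of cyclic nucleotides and glutathione conjugates. In hepatocytes it was at 3.51, 4.25 and 3.63 in the controls, 5.40, 5.49 and 5.27 in the KEAP1 knockout, 4.28, 4.50 and 4.07 in the NEMO knockout and 6.03, 5.93 and 5.78 in the double knockout. The KEAP1-deleted cultures were again clear of the others, and the group means were in the order double knockout, KEAP1 knockout, NEMO knockout and control. In liver the ranges overlapped through the array labelled liver control 3 and did not overlap without the arrays in doubt, with 4.65, 4.57 and 5.93 in the controls, 5.92, 5.69 and 6.08 in the KEAP1 knockout, 5.09, 5.13 and 5.41 in the NEMO knockout and 6.11, 5.88 and 6.66 in the double knockout. The hepatocyte KEAP1 knockout exceeded control by 1.59 ± 0.19 (limma, adjusted p = 0.000847), and the double knockout exceeded the NEMO knockout by 1.63 ± 0.19 (limma, adjusted p = 0.000343) and control by 2.11 ± 0.19 (limma, adjusted p = 1.76e-05). All 3 calls held with each single array left out and under the 8 processing alternatives run. Of these 8, the mean over probe sets leaves the level unchanged. In liver the difference between KEAP1 knockout and control was 0.85 ± 0.31 with all arrays (limma, adjusted p = 0.624) and 1.29 ± 0.16 with those in doubt left out (limma, adjusted p = 0.000666). The difference between NEMO knockout and control livers was 0.16 ± 0.31 with all arrays (limma, adjusted p = 0.819) and 0.60 ± 0.16 with those in doubt left out (limma, adjusted p = 0.0264).

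Abcc1 encodes MRP1, a pump for glutathione conjugates and leukotriene C4 that healthy hepatocytes express little and many other cell types express. Hepatocyte cultures had it at 3.48, 3.40 and 3.74 in the controls, 3.89, 4.18 and 3.96 in the KEAP1 knockout, 4.27, 3.90 and 4.21 in the NEMO knockout and 5.11, 5.19 and 4.57 in the double knockout. The double knockout was above all other cultures and the controls below, and the single knockouts overlapped. In liver the controls were at 4.45, 4.14 and 5.27, the KEAP1 knockout at 5.12, 4.72 and 5.70, the NEMO knockout at 4.89, 4.76 and 4.83 and the double knockout at 5.86, 5.31 and 6.76. The highest liver value was that of double knockout 3, the array with fat cell and duct transcripts. In hepatocytes the double knockout exceeded control by 1.41 ± 0.18 (limma, adjusted p = 0.00027), which held with each array left out. It exceeded the KEAP1 knockout by 0.95 ± 0.18 (limma, adjusted p = 0.0156), the only pump called there with all arrays, beside 2.16% of genes called higher. It exceeded the NEMO knockout by 0.83 ± 0.18 (limma, adjusted p = 0.0275). Those last calls were lost without hepatocyte double knockout 1 or 2 (0.0585 to 0.119), the first also without KEAP1 knockout 1 or 3 (0.0711 and 0.0693) and the second without any 1 of the NEMO knockouts (0.0543 to 0.116) or with its groups fitted alone (0.0654). With the arrays in doubt left out, 3 pumps were higher in the double than in the KEAP1 knockout hepatocytes (Abcc1, Abcc4 and Abcb1a), beside 2.83% of genes. In liver that comparison called 0 pumps and 0% of genes with all arrays, with 1 pump at an unadjusted p under 0.05, and 0 pumps and 0.0531% of genes without the arrays in doubt, when 0 pumps had an unadjusted p under 0.05.

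Abcb1a encodes a P-glycoprotein, the broad drug pump of the canalicular membrane and of endothelial barriers. The hepatocyte controls split, with 6.99 on control 1, an array in doubt, and 4.70 and 4.86 on controls 2 and 3. The KEAP1 knockout was at 4.98, 5.22 and 5.28, the NEMO knockout at 5.19, 5.55 and 5.30, and the double knockout at 6.36, 6.86 and 7.07, the last on another array in doubt. Only the double knockout and control 1 were above 6. The highest values, 6.99 and 7.07, were on the 2 hepatocyte arrays high in Xist, and the part of sex was not tested. Once the arrays in doubt were left out, the double knockout hepatocytes exceeded control by 1.83 ± 0.20 (limma, adjusted p = 0.000155), the NEMO knockout by 1.26 ± 0.18 (limma, adjusted p = 0.00212) and the KEAP1 knockout by 1.45 ± 0.18 (limma, adjusted p = 0.00132). With all arrays the same differences were 1.25 ± 0.44, 1.41 ± 0.44 and 1.60 ± 0.44, with adjusted p of 0.106, 0.115 and 0.0824. The interaction was not called (0.88 ± 0.26 without the arrays in doubt, limma, adjusted p = 0.315). In liver the levels were 5.19, 5.17 and 6.36 in the controls, 6.21, 5.59 and 5.74 in the KEAP1 knockout, 5.87, 5.53 and 5.80 in the NEMO knockout and 6.52, 5.91 and 7.06 in the double knockout. Only double knockout against control was called there, without the arrays in doubt (1.03 ± 0.23, limma, adjusted p = 0.0156).

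Abcb1b encodes the other rodent P-glycoprotein, whose sequence is close to that of Abcb1a, so probes of either may also read the other. Its levels ran from 3.84 to 5.59 over the 24 arrays with wide spread within groups, such as 5.45, 5.34 and 4.24 in the NEMO knockout hepatocytes and 4.21, 4.19 and 3.94 in the double knockout. It was called in none of the 20 comparisons, with all arrays or without those in doubt. The interval this leaves is wide: the double minus NEMO knockout difference in hepatocytes was -0.89 ± 0.38, beside 1.41 ± 0.44 for Abcb1a.

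Abcc6 encodes MRP6, which releases ATP from hepatocytes and is lost in pseudoxanthoma elasticum. It was the only pump called lower in a double knockout. In hepatocytes it was at 8.15, 7.94 and 8.08 in the controls, 7.82, 7.83 and 7.88 in the KEAP1 knockout, 7.71, 7.76 and 7.99 in the NEMO knockout and 7.51, 7.36 and 7.77 in the double knockout. The control and double knockout ranges did not meet, and the NEMO knockout overlapped both. The livers were at 8.01, 7.83 and 7.42 in the controls, 7.63, 7.47 and 7.41 in the KEAP1 knockout, 7.46, 7.72 and 7.37 in the NEMO knockout and 7.26, 7.34 and 6.80 in the double knockout. The double knockout hepatocytes were lower than control, at -0.51 ± 0.11 (limma, adjusted p = 0.011). That call was lost without hepatocyte double knockout 2 (-0.42 ± 0.12, adjusted p = 0.064) and with the 2 groups fitted alone (0.0542). Neither single knockout was called for it in either tissue.

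For the double knockout against control in liver, limma called 0 of 9 pumps with all arrays, beside 1 gene of 18820 (0.00531%), with 7 pumps at an unadjusted p under 0.05. Without the arrays in doubt, or without the array labelled liver control 3 alone, 8 were called: 7 higher (Abcb1a, Abcc1, Abcc2, Abcc3, Abcc4, Abcc5 and Abcg2) and Abcc6 lower, beside 6.37% of genes higher and 2.84% lower in the first of these fits. Liver control and double knockout arrays with the same replicate number deviated together weakly (r of residuals 0.115, 0.136 and 0.23, the last between 2 arrays in doubt). That does not show pairing, and the fit with the replicate number as a block is given beside this comparison. It called Abcc1 (1.36 ± 0.22, limma, adjusted p = 0.0197), Abcc5 (1.17 ± 0.20, adjusted p = 0.0225) and Abcc6 (-0.62 ± 0.12, limma, adjusted p = 0.0297), beside 2.76% of genes higher and 1.48% lower.

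Markers of other cells also moved with the Abcc1 and Abcb1a results. All 8 macrophage markers were measured, and their summed level (log2) was 8.70 to 9.88 in the hepatocyte controls, 9.68 to 10.47 in the KEAP1 knockout, 10.73 to 11.24 in the NEMO knockout and 11.19 to 11.65 in the double knockout. That order of groups is also the order of Abcc1 and, without the arrays in doubt, of Abcb1a. The endothelial sum was 10.33 to 10.66 in the NEMO knockout and 10.58 to 10.74 in the double knockout, and the stellate cell sum 10.53 to 10.80 and 10.09 to 10.18, all above the controls and, except for the lowest endothelial value of the NEMO knockout, above the KEAP1 knockout. The part of these cells in the Abcc1 and Abcb1a values was not tested. For Abcc4 the order was another: in the NEMO knockout cultures, where macrophage markers exceeded every KEAP1 knockout culture, it was lowest. The part of these cells in the Abcc4 values was not tested either. In liver the macrophage sum ran from 10.44 to 11.40 in the controls and from 11.30 to 11.55 in the double knockout, and from 10.44 to 10.51 and from 11.40 to 11.55 without the arrays in doubt, as in the fit that called Abcc1 and Abcb1a there. In bulk RNA, fewer cells of a type and less RNA per cell cannot be told apart.

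**Figure D3:**
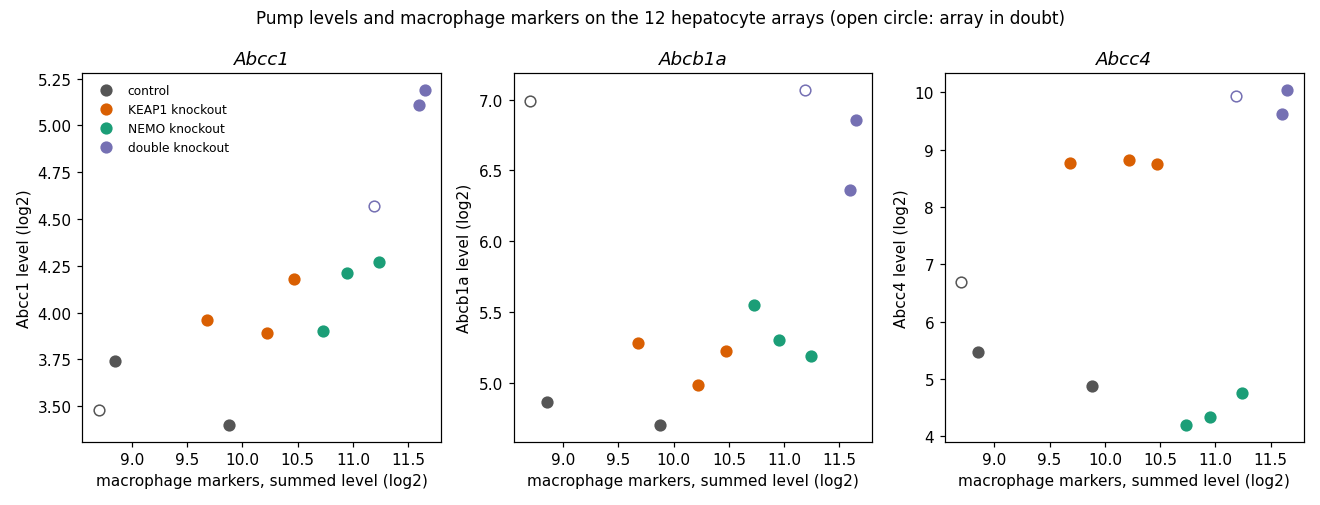
Level of Abcc1, Abcb1a and Abcc4 (vertical axes, log2) against the summed level of 8 macrophage markers (horizontal axis, log2) on the 12 hepatocyte arrays, coloured by genotype, with arrays in doubt open. Abcc1 is lowest in the controls and highest in the double knockout, where the markers are also highest. Abcc4 is below 5 in the NEMO knockout at marker levels above 10.7. The part of macrophages in these levels was not tested.

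Hepatocyte markers were high in both tissues, with the summed level of 6 genes between 15.19 and 15.50 on all arrays. The 5 cholangiocyte markers measured ran from 6.17 to 7.92 except on liver double knockout 3 (9.34), and the 5 adipocyte markers from 5.01 to 5.60 except on the same array (8.79). The 5 T and natural killer cell markers ran from 5.58 to 6.71 and the 4 neutrophil markers from 5.22 to 6.84. The 3 erythroid markers measured were at 6.14 to 9.0, and the lowest values, 6.19 and 6.14, were on the 2 hepatocyte arrays high in Xist.

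Whole liver and cultured hepatocytes of the same genotype differed little in most pumps. Abcc1 was lower in hepatocytes than in liver in the controls (-1.07 ± 0.30, limma, adjusted p = 0.0422), as was Abcc5 (-1.25 ± 0.27, limma, adjusted p = 0.00642), beside 3.84% of genes called lower. Without the arrays in doubt neither was called, at -0.72 ± 0.25 and -0.67 ± 0.20 (limma, adjusted p = 0.155 and 0.0817), 3 pumps had an unadjusted p under 0.05 and 3.06% of genes were called. In the KEAP1 knockout Abcc1 was lower (-1.17 ± 0.30, limma, adjusted p = 0.043, beside 2.02% of genes), and without the arrays in doubt Abcb1a too (5.27% of genes). The Abcc1 call was lost in 5 of the 6 exclusions of a control array (0.0558 to 0.229) and in 5 of the 6 of a KEAP1 knockout array (0.0737 to 0.225). It also ended with the replicate block (0.0606 and 0.0603), in controls with the groups fitted alone (0.126), as did that of Abcc5 (0.177), and in the KEAP1 knockout with quantile normalization (0.0845). In the NEMO knockout 0 pumps were called with all arrays (3.77% of genes, 2 pumps at an unadjusted p under 0.05) and Abcc1, Abcc4 and Abcc5 were lower without the arrays in doubt (5.81% of genes called lower). In the double knockout 0 were called in either fit (2.24% and 0.792% of genes, with 2 pumps and then 0 at an unadjusted p under 0.05).

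The change with KEAP1 loss itself was not called different between liver and hepatocytes for any pump. Both tests of that difference called 0 of 9 pumps and 0% of genes with all arrays, and 0 pumps had an unadjusted p under 0.05. Once the arrays in doubt were left out both again called 0 pumps, 2 and 3 of them with an unadjusted p under 0.05, beside 0.0106% and 0.0159% of genes. The precision was low: for Abcc4, the liver change minus the hepatocyte change was 0.07 ± 1.19 with all arrays and 1.34 ± 0.37 without those in doubt (limma, adjusted p = 0.293) for the KEAP1 knockout against control. For the double against the NEMO knockout it was -0.87 ± 1.19 and -0.93 ± 0.37.

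Among genes of the same pathway, the conjugating enzymes and glutathione supply genes contributed 8 higher and 0 lower of 29 measured in the hepatocyte KEAP1 knockout against control, where 1.45% of all genes were higher and 0.425% lower, with a median change of 0.53 against 0.00 over all genes. The cystine importer Slc7a11 was higher by 2.49 ± 0.37 and the glutathione transferase Gstm3 by 1.57 ± 0.36. In liver the list had 18 higher and 1 lower without the arrays in doubt, beside 3.71% of all genes higher and 1.55% lower, and 0 called with all arrays. The lower gene there was the sulfotransferase Sult1a1 (-0.81 ± 0.20). The list of conjugating enzymes and that of classic NRF2 targets share genes, among them Slc7a11, so their counts are not independent. Of 14 classic NRF2 targets measured, 7 were higher and 0 lower in hepatocytes, led by the carbonyl reductase Cbr3 (5.22 ± 0.24) and the glutathione peroxidase Gpx2 (3.74 ± 0.45). In liver 12 were higher and 0 lower without the arrays in doubt, and 0 were called with all arrays. A liver control left out of that fit came into doubt through NRF2 target genes. The liver counts of both lists without the arrays in doubt are therefore not independent of the removal of that array.

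These shares of all genes are also those to set beside the other transporters. Of 28 other ABC transporters measured, 2 were higher and 0 lower in the hepatocyte KEAP1 knockout against control: Abcc12 (2.01 ± 0.22) and Abcc9, a subunit of a potassium channel (0.97 ± 0.19). Abcc12 was higher by 2.48 ± 0.17 in liver without the arrays in doubt. Of 10 uptake carriers measured, Slc22a7, which takes up organic anions from blood, was the only one called in hepatocytes (-1.57 ± 0.14). In liver without the arrays in doubt Slc22a7 (-1.95 ± 0.30) and the bile acid and organic anion carrier Slco1a1 (-1.96 ± 0.49) were lower. Of 6 other organic ion exporters and related carriers, the urate carrier Slc22a12 was the only one called in hepatocytes (3.10 ± 0.28) and in liver (3.27 ± 0.21 without the arrays in doubt). Of 6 scaffolds that anchor pumps to the membrane, 0 were called in hepatocytes, and Ezr (0.85 ± 0.18) and Msn (0.81 ± 0.14) were higher in liver without the arrays in doubt. These 2 proteins link membranes to actin in many cell types.

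The 10 regulators measured had 0 called in the hepatocyte KEAP1 knockout against control. Nfe2l2, which encodes NRF2 itself, was higher in the NEMO knockout against control, by 0.73 ± 0.15 in hepatocytes (limma, adjusted p = 0.00853) and by 1.10 ± 0.11 in liver (limma, adjusted p = 0.000949). Abcc4 was lower in those hepatocytes, a call lost without hepatocyte control 3 or any 1 of the NEMO knockout cultures. In those livers the sign of the Abcc4 change turned with the array labelled liver control 3. So did that of Nqo1, at -0.63 ± 0.80 with all arrays and 0.75 ± 0.19 without the arrays in doubt. Keap1 was -0.24 ± 0.14 against control in the hepatocyte KEAP1 knockout and -0.55 ± 0.15 in liver. Its probe set need not lie in the deleted part, so it does not check the deletion. With NEMO loss alone in hepatocytes, 4.61% of all genes were called higher and 2.05% lower. The calls in the lists were 0 of 29 conjugating enzymes, 1 lower of 14 NRF2 targets (Me1, -0.40 ± 0.11), 3 higher and 1 lower of 28 other ABC transporters, and 1 scaffold higher (Msn, 1.83 ± 0.32). The lists were chosen with earlier results of these data known, so their counts are descriptions.

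The genes whose pattern was most like that of each pump called in a comparison with KEAP1 loss were found over the 24 arrays after subtracting each tissue's mean, and r is Pearson's correlation across arrays that share groups, given without a test. For Abcc4 they were Cbr3 (0.982), Cbr1 (0.982) and Nqo1 (0.98). For Abcc3 they were Cyp2a5 (0.977), Pgrmc1 (0.973) and 9130409I23Rik (0.963), and for Abcc2 Gbe1 (0.954), Gpx2 (0.949) and Entpd5 (0.946). Abcc5 was most like Rassf4 (0.943), Anxa13 (0.92) and Tinag (0.914), and Abcg2 most like Rexo2 (0.917), Hprt (0.906) and Mgst1 (0.885). Abcc1 was most like Dst (0.929), the leukocyte integrin subunit Itgam (0.926) and Adgrg1 (0.921). Abcb1a was most like Tmprss2 (0.837), Scpep1 (0.822) and Mgst3 (0.82), and Abcc6 most like Dpyd (0.943), Sephs2 (0.93) and Abcd3 (0.929). Against Nqo1, r was 0.98 for Abcc4, 0.949 for Abcc3, 0.933 for Abcc2, 0.798 for Abcc5, 0.691 for Abcg2, 0.641 for Abcb1a, 0.638 for Abcc1, -0.155 for Abcb1b and -0.565 for Abcc6. Without the arrays in doubt the value for Abcg2 was 0.923.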

How the data were processed

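The values are the authors' log2 intensities of single-colour arrays as deposited, with a value for each probe set. The submitters' processing notes name RMA, which corrects background, normalizes between arrays and summarises probes. Its version and settings are not given in the labels or notes used here. Values ran from 0.51 to 13.62 and array medians from 4.03 to 4.23. There is no read depth and no detection call among the values used here, 3 arrays per group limit the precision, and low levels understate folds. Of 35556 probe sets, 21218 had 1 symbol, 1881 several and 12457 were not listed; those with 1 symbol gave 18820 genes, the brightest probe set standing for each. A RefSeq gene table (GRCm38.p6) changed 0 symbols, and 30 genes had no match.

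The test was limma's moderated test (limma 3.58.1, R 4.3.3; lmFit, eBayes with trend, two-sided) in 20 comparisons, each adjusted alone with the Benjamini-Hochberg method. Comparisons within a tissue used its 12 arrays and those across tissues all 24. Changes are ± SE of the fit. P-values measure the spread between these arrays, which stand for separate mice only as far as the labels go. The fit was run on simulated arrays before use.

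The members and lists, the alternatives and the 4 arrays in doubt were chosen with earlier results of these data known. The text names all 9 pumps, from each list up to 2 called genes with the largest change each way, and the 3 genes most like each pump called in a comparison with KEAP1 loss. The lists were other ABC transporters, uptake carriers, other exporters, conjugating enzymes, NRF2 targets, regulators, scaffolds and the cell markers.

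Replicate numbers were checked by the correlation of residuals: liver control and liver double knockout had 0.115, 0.136 and 0.23, all above 0.1. No other pair of groups had all 3 above 0.1. Between the other liver groups, residuals of replicates 2 and 3 were also positively correlated (0.0848 to 0.258). Those of replicate 1 ran from -0.0541 to 0.0856 there. The pair at 0.23 joins 2 arrays in doubt. Alternatives were the exclusion of arrays, the replicate block, groups fitted alone, a filter at a level of 5 on 3 arrays, the mean over probe sets, quantile normalization and no trend. Each pump had 1 probe set, so the mean over probe sets could alter its calls only through other genes.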

Additional observations from a re-analysis of the deposited data

How the results depend on the processing

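Of 180 pairs of pump and comparison, 59 were called with all arrays or without the 4 arrays in doubt. For these, 8 processing alternatives gave 469 values: 384 kept direction and call, 23 lost a call, 60 gained one and 2 turned sign. The 8 include the mean over probe sets, which leaves the level of every pump unchanged, so its values say little about stability. Leaving out single arrays gave 360 values: 281 kept both, 59 lost a call, 17 gained one and 3 turned sign. In liver NEMO knockout against control, Abcc4 turned from -0.83 to 0.94, both without the 4 arrays in doubt and without the array labelled liver control 3, and was -1.98 at its lowest, without liver control 1. There Abcc5 turned from 0.16 to -0.02 with quantile normalization and to -0.04 and -0.08 without liver control 1 and 2, and was 0.60 without the array labelled liver control 3. The cause was not tested. Of the 121 pairs not called in either fit, 28 turned sign under an alternative, such as Abcb1a in hepatocytes for KEAP1 knockout against control (-0.36 with all arrays, 0.38 without those in doubt).

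Counts of pumps called that moved were as follows. Without the 4 arrays in doubt they were 2, 5 and 8 for liver NEMO, KEAP1 and double knockout against control, 5 for double and 5 for KEAP1 against NEMO knockout in liver, 3 for double against KEAP1 knockout hepatocytes, 1 for the hepatocyte interaction, and 0, 3 and 2 for hepatocytes against liver in control, NEMO and KEAP1 knockout. Keeping the array labelled liver control 3 and leaving out the other 3 gave 0 for liver double against NEMO knockout, 3 for double against KEAP1 knockout hepatocytes, 1 for the hepatocyte interaction and 1 for NEMO knockout hepatocytes against liver. The replicate block gave 3 for liver double knockout against control. It gave 2 for liver double against NEMO knockout, Abcc1 and Abcc5 in place of Abcc3. For hepatocyte NEMO knockout against control it gave 2, and for hepatocytes against liver 1 in control and 0 in KEAP1 knockout. Other counts stayed within 1.5 times. Groups fitted alone gave 4 and 5 for liver double and KEAP1 against NEMO knockout, 0, 4 and 3 for hepatocyte NEMO against control, double against control and double against KEAP1 knockout, and 0, 3 and 2 for hepatocytes against liver in control, NEMO and KEAP1 knockout. The filter on low levels gave 2 for liver double against NEMO knockout, 2 for hepatocyte NEMO knockout against control and 0 for double against KEAP1 knockout hepatocytes, where it removes Abcc1. Quantile normalization gave 3 for liver double against NEMO knockout and 0 for KEAP1 knockout hepatocytes against liver. Without the trend, liver double against NEMO knockout and hepatocyte NEMO knockout against control gave 0 each.

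With single arrays left out, liver counts ran from 0 to 5 for KEAP1 knockout and 0 to 8 for double knockout against control (the highest in both without the array labelled liver control 3), 0 to 1 for KEAP1 against NEMO knockout, and 0 to 0 for NEMO knockout against control, double against KEAP1 knockout and the interaction. For double against NEMO knockout every exclusion took the count from 1 (Abcc3) to 0, a range of 0 to 0. Hepatocyte counts ran from 0 to 3 for NEMO, 2 to 3 for KEAP1 and 3 to 7 for double knockout against control, 3 to 5 for double against NEMO, 0 to 1 for double against KEAP1 and 3 to 4 for KEAP1 against NEMO knockout, and 0 to 2 for the interaction. Hepatocytes against liver gave 1 to 2 in control, 0 to 0 in NEMO, 0 to 1 in KEAP1 and 0 to 1 in double knockout, and both tissue differences 0 to 0.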
